A study of Rattus norvegicus with 7 samples.

Results

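The kinesin motor family was described across 7 RNA-seq libraries of newborn rat heart muscle cells. Its members were all protein-coding rows of the deposited expression table whose symbol begins with Kif or Kifc followed by a digit. This gave 38 genes out of 17141 listed genes, of which 15208 are protein-coding. By known role, 12 of them act on the spindle, the chromosomes or cytokinesis, 15 carry cargo, and 11 act in cilia, in signalling or on microtubule length. The cells were ventricular cardiomyocytes of wild type Wistar rats at postnatal day 0, enriched by keeping the cells that had not settled during a first plating on plastic. Each culture received a synthetic miRNA at 25 nM with a lipid reagent, and poly(A)-selected RNA was sequenced from total RNA taken 72 h later. The 6 tested miRNAs, human sequences by name, were miR-1825, miR-590-3p, miR-199a-3p, miR-373-3p, miR-33b* and miR-302d-3p. They were set against cel-miR-67, a nematode miRNA that is the denominator of the ratios the authors deposited, although the labels do not name it a control. The series title names cardiomyocyte proliferation, and the kinesins bear on that through cell division. Labels give 1 library per miRNA and mention no replicate culture, so no difference below has a replicate check and no p-value is given.

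Kinesins are motor proteins that use ATP to move along microtubules or to shorten them. In dividing cells they separate the spindle poles, move and align chromosomes, and build the central spindle on which cytokinesis depends. Other kinesins carry vesicles, mitochondria and RNA toward microtubule plus ends in cells that may never divide again. Transcripts of many mitotic kinesins accumulate late in the cell cycle, and their promoters often hold a cell-cycle genes homology region (CHR), bound by the MuvB complex, near a CCAAT box bound by NF-Y. Heart muscle cells of rodents largely leave the cell cycle soon after birth.

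The promoters of the 4 mitotic genes that lead the comparison and of its 2 transport genes are shown. Of these elements, the CHR was matched in the 4 mitotic genes alone, whereas CCAAT was matched in genes of both kinds. All 6 come from RefSeq on the GRCr8 build, which is not the Rnor_6.0 build of the deposited data, and each runs 5′ to 3′ on the gene's strand from 250 bases before the start site through 50 bases from it. Capitals mark matches on either strand to TTTGAA or TTTAAA (2 forms of the CHR), to CCAAT, and to TTTCCCGC or TTTGGCGC (E2F-type sites). A CCAAT on the other strand reads ATTGG. None of the marked matches overlap. The windows lie at chr1:244536617-244536916 on the plus strand (Kif11), chr18:26504172-26504471 on the plus strand (Kif20a), chr8:71320535-71320834 on the minus strand (Kif23), chr5:135899163-135899462 on the minus strand (Kif2c), chr17:56185136-56185435 on the plus strand (Kif5b) and chr5:165025799-165026098 on the minus strand (Kif1b).
Kif11: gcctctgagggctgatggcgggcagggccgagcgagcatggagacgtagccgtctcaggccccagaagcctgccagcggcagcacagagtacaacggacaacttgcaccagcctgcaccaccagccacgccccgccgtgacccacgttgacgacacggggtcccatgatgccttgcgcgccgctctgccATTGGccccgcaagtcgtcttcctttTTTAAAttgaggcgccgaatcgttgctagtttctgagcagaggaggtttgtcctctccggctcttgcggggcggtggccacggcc
Kif20a: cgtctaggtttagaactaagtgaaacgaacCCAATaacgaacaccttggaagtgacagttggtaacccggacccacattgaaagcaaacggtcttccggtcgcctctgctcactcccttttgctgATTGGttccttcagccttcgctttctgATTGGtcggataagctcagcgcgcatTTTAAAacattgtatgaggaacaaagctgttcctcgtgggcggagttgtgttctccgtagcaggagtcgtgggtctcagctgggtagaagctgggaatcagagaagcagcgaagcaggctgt
Kif23: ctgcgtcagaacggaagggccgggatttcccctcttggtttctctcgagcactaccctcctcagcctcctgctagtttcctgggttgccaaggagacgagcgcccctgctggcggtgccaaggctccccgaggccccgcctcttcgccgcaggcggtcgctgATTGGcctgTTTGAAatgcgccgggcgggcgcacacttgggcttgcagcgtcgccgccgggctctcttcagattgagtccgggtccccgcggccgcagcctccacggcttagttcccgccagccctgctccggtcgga
Kif2c: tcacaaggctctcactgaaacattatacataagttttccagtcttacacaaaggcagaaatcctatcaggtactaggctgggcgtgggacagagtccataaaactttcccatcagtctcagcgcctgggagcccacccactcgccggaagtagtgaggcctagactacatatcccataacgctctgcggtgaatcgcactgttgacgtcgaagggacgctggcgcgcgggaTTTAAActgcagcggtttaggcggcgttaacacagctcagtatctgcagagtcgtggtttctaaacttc
Kif5b: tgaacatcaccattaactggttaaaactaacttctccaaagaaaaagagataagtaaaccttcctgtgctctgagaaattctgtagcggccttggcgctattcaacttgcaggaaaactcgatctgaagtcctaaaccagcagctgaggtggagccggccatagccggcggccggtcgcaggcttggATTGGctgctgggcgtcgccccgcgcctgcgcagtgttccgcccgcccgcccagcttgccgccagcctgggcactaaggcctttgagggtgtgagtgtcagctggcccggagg
Kif1b: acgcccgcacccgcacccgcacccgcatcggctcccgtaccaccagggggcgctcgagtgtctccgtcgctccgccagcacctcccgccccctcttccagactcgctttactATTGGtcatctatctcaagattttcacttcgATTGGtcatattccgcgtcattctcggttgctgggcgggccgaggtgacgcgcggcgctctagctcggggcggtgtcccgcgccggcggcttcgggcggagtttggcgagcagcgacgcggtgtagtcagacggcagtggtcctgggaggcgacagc

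In these windows the Kif11 promoter had TTTAAA with its first base at -35 and a CCAAT box at -61, counted from the start site. Kif20a had TTTAAA at -72 and 3 CCAAT boxes, at -220, -125 and -98. Kif23 had TTTGAA at -79 next to a CCAAT box at -88, and Kif2c had TTTAAA at -19 with no CCAAT. The transport genes had no CHR match, while CCAAT occurred at -63 in Kif5b and at -138 and -107 in Kif1b. A promoter was listed for 30 of the 38 members. A CHR of either form was found in 9 of 11 promoters of the spindle and cytokinesis members (81.8%), in 0 of 11 promoters of the transport members and in 1 of 8 promoters of the remaining members (12.5%). Over all 27457 listed promoters of the same length the share was 27.9%, and over the 19005 protein-coding ones 26.1%. The shares with CCAAT were 63.6% (7 of 11), 27.3% (3 of 11) and 37.5% (3 of 8) in the same 3 groups. Beside these stood 37.8% of all promoters and 38.4% of protein-coding ones. Both elements together were found in 63.6% of spindle and cytokinesis promoters, in 11.2% of all promoters and in 10.8% of protein-coding ones. An E2F-type site was present in 1 of 11 spindle and cytokinesis promoters, that of Kif18a. It was present in 1.53% of all promoters and 1.93% of protein-coding ones. The 6 members at least 1.5-fold higher in all 6 miRNA libraries (Kif11, Kif20a, Kif20b, Kif23, Kif2c and Kif4a) had a CHR match in 6 of 6 and a CCAAT box in 5 of 6 promoters, all but Kif2c. These 6 were picked by their changes in the same data and all belong to the spindle group, where 9 of 11 promoters had a CHR match. A tie between element and change within that group was not tested. These matches describe letters in a window and do not show that a factor binds there.

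**Figure D1:**
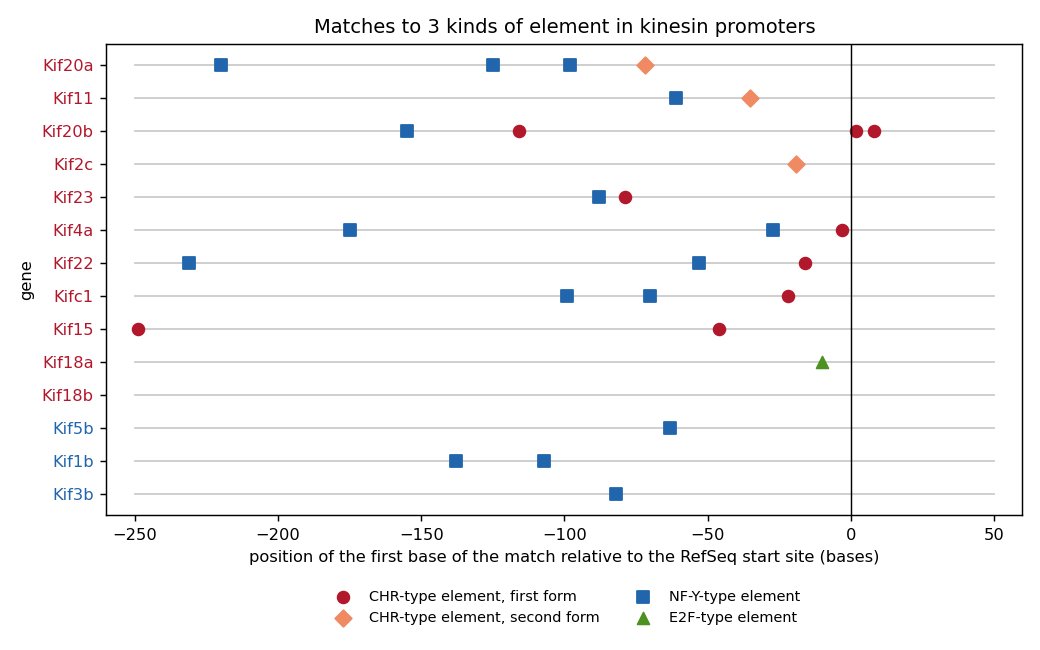
Positions of the first base of each match (horizontal axis, bases from the RefSeq start site) in 14 kinesin promoters, one line per gene, with marker shapes for the 2 CHR forms, the NF-Y-type element and the E2F-type element. Of the genes plotted, CHR matches lie in spindle and cytokinesis genes (red names), and the 3 transport genes with any match (blue names) carry NF-Y-type matches alone.

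Library depth and cell type set the frame for the values. Values are RPKM, reads scaled to the length of the gene and to a library size that differs from the total of listed reads. Levels of different genes are thus compared per length. Whole reads recovered from the RPKM gave 22616067 to 31963293 reads over the listed genes of a library. Changes are log2((RPKM + 1)/(cel-miR-67 RPKM + 1)), a scale on which changes of low genes look smaller than they are, and a gene was counted when its mean over the 7 libraries reached 1 RPKM. This left 12330 genes and 28 of the 38 members. All 6 changes of a gene share the cel-miR-67 library, so a low or high value there enters all 6 of them. Where a fold is printed with an interval, it is the ratio of read rates without the pseudocount, with an exact 95% Clopper-Pearson interval that covers counting error of those 2 libraries only. All 9 cardiomyocyte markers (Tnnt2, Myh6, Myh7, Actc1, Actn2, Tnni3, Ryr2, Mybpc3 and Myl2) were detected in every library, summing to between 15319 and 19281 RPKM after the 6 miRNAs and to 19911 RPKM with cel-miR-67. The 8 fibroblast markers summed to between 541 and 781 RPKM after the 6 miRNAs, against 821 RPKM with cel-miR-67. Of these, 3 were below 0 in all 6 (13.4% of all genes tested) and 1, Lum, above 0 in all 6 (13.9%). Changes of Postn lay between -1.46 and -0.90. Sums of 5 smooth muscle markers were 762 to 1165 RPKM after the miRNAs and 751 RPKM with cel-miR-67. Only Cnn1 was higher after every miRNA, by 0.76 to 1.73. With miR-302d-3p the changes were -0.51 for Acta2, -0.77 for Myh11, -0.26 for Tagln and -0.13 for Smtn. These 4 were also lower with miR-373-3p, so the sums do not speak for each marker. Endothelial markers (6 of 7 matched, Pecam1 missing) summed to 13.8 to 17.4 RPKM against 22.1 RPKM, the 5 macrophage and leukocyte markers to 4.01 to 6.41 RPKM against 6.601 RPKM, and the neuron and Schwann cell markers (3 of 7 matched) to 1.15 to 2.23 RPKM against 1.56 RPKM. No matched marker was at 0 in any library, and the part of these other cells in the kinesin values was not tested. In bulk RNA, fewer cells of a type and less RNA per cell cannot be told apart, and neither can more dividing cells and more RNA per dividing cell.

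Kif11, Kif20a, Kif23 and Kif2c were higher after every tested miRNA than after cel-miR-67, and the miR-1825 library held the highest level of each of the 12 spindle and cytokinesis members. Of these 12, 11 were above the cel-miR-67 level in all 6 miRNA libraries, and 6 (Kif11, Kif20a, Kif20b, Kif23, Kif2c and Kif4a) were at least 1.5-fold higher in all 6. The same 6 were the only ones of the 28 members past that limit, against 0.584% of all genes tested, and 16 of 28 members were above 0 in all 6 libraries, against 13.9%. Of the 28 members past the filter, 0 were at least 1.5-fold lower in all 6, against 0.211% of genes, and 0 were below 0 in all 6, against 13.4%. Among the 10 members below the filter, Kif26a, Kif5a and Kif12 were below 0 in all 6. The mean used by the filter includes the 6 miRNA libraries, which bears on these counts and on those below. Kif26b and Kif21b, among the 16, were 0.184 and 0.684 RPKM with cel-miR-67. They passed through miRNA libraries in which they are higher, while Kif26a, at 1.21 RPKM with cel-miR-67, did not pass. With a pseudocount of 5 RPKM in place of 1, the count past 1.5-fold in all 6 was 1 instead of 6.

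At a 2-fold limit on the scale with the pseudocount, 10 of 28 members were higher with miR-1825 (2% of all genes tested), 8 with miR-590-3p (1.51%), 5 with miR-199a-3p (1.04%), 5 with miR-373-3p (1.15%), 1 with miR-302d-3p (1.31%) and 0 with miR-33b* (1.3%). These counts move with the pseudocount and the scaling. With a pseudocount of 5 RPKM they were 2 for miR-199a-3p and 0 for miR-373-3p, with 0.1 RPKM 5 for miR-33b*, and with values scaled to listed reads 9 for miR-199a-3p, 3 for miR-302d-3p and 4 for miR-33b*. Spindle and cytokinesis members made up all 10, all 8 and all 5 of the first 3 counts as deposited. They made up 4 of the 5 with miR-373-3p and none with miR-302d-3p, where Kif26b was the member past the limit. Kif26b, also counted with miR-373-3p, passed the filter only through the libraries in which it is high. Kif22 with miR-199a-3p, at 1.00 on the log2 scale, sat on the limit. The median change of the 12 spindle and cytokinesis members was 1.57 with miR-1825, 1.16 with miR-590-3p, 0.86 with miR-199a-3p, 0.73 with miR-373-3p, 0.65 with miR-33b* and 0.56 with miR-302d-3p. Medians over all genes tested lay between -0.003 and 0.015. The count intervals of the fold lay above 1 for 12 of 12 spindle and cytokinesis members in 5 of the miRNA libraries and for 10 of 12 with miR-33b*. None lay below 1. Over all genes tested the share of intervals above 1 was 28% with miR-1825, 24.2% with miR-590-3p, 25.4% with miR-199a-3p, 27.5% with miR-373-3p, 25.1% with miR-33b* and 30.1% with miR-302d-3p, so such an interval is common at this depth. Transport members with an interval above 1 numbered 6 of 11 with miR-199a-3p and 1 of 11 with miR-302d-3p, the most and the fewest, and members with other roles 3 to 5 of 5.

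**Figure D2:**
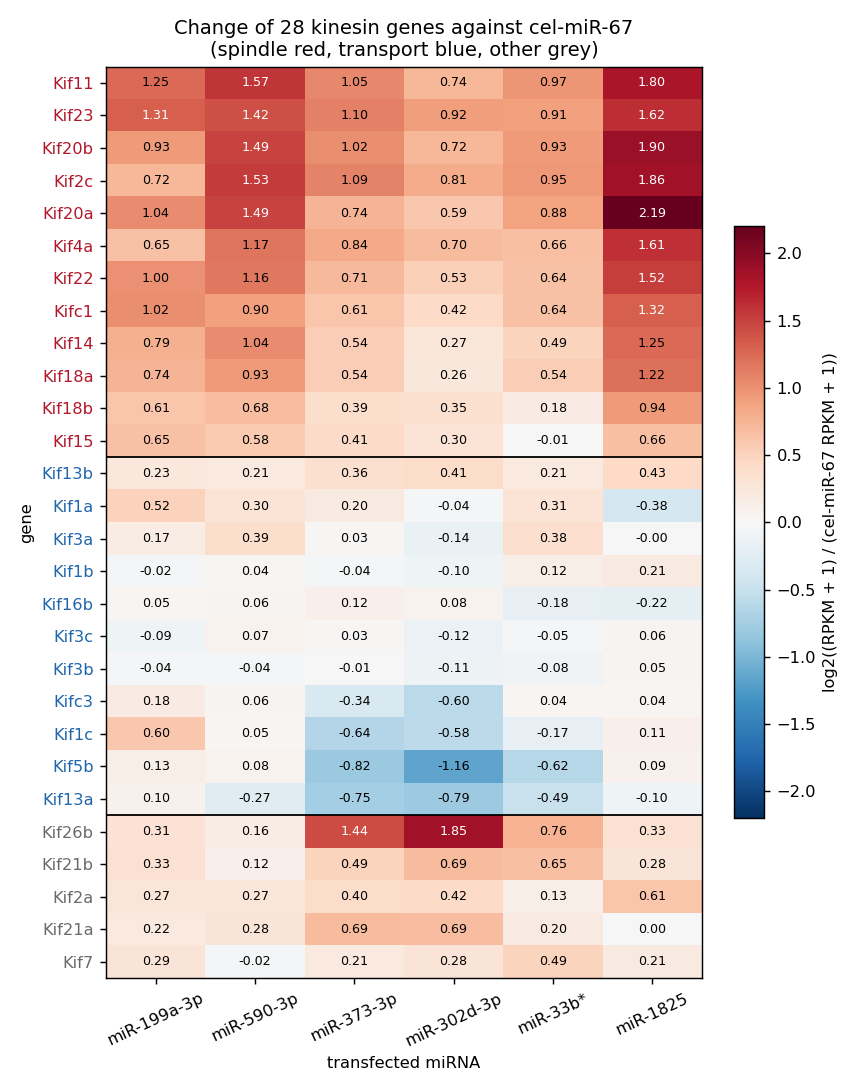
Log2 change against cel-miR-67 (colour and printed value) of the 28 kinesin genes that passed the level filter (rows, grouped by role) in the 6 miRNA libraries (columns). The spindle and cytokinesis block is above 0 nearly throughout, with the highest values in the miR-1825 column, while the transport block holds values on both sides of 0.

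Kif11 (Eg5), the plus-end motor that pushes the spindle poles apart, stood at 35.2 RPKM with miR-1825, 29.9 with miR-590-3p, 23.9 with miR-199a-3p, 20.6 with miR-373-3p, 19.4 with miR-33b* and 16.4 with miR-302d-3p, against 9.42 RPKM with cel-miR-67. All 6 miRNA libraries lay above the cel-miR-67 library. Folds ran between 1.74 (1.62 to 1.87) with miR-302d-3p and 3.74 (3.49 to 4.01) with miR-1825. On the log2 scale the changes were 1.80 with miR-1825, 1.57 with miR-590-3p, 1.25 with miR-199a-3p, 1.05 with miR-373-3p, 0.97 with miR-33b* and 0.74 with miR-302d-3p.

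Kif20a (MKLP2), which brings the chromosomal passenger complex to the central spindle, was the most abundant mitotic kinesin per length. It stood at 96.3 RPKM with miR-1825, 58.8 with miR-590-3p, 42.9 with miR-199a-3p, 34.5 with miR-373-3p, 38.1 with miR-33b* and 31.1 with miR-302d-3p, against 20.3 RPKM with cel-miR-67. The miR-1825 value was the highest of any spindle or cytokinesis member in any library. Folds ran between 1.53 (1.44 to 1.64) with miR-302d-3p and 4.75 (4.48 to 5.04) with miR-1825, the widest range among the 4 mitotic genes.

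Kif23 (MKLP1), the motor subunit of centralspindlin, stood at 34.7 RPKM with miR-1825, 30.0 with miR-590-3p, 27.7 with miR-199a-3p, 23.8 with miR-373-3p, 20.7 with miR-33b* and 20.9 with miR-302d-3p, against 10.6 RPKM with cel-miR-67. Its 6 changes were the most even of the 4 mitotic genes, between 0.91 with miR-33b* and 1.62 with miR-1825. Kif2c (MCAK), which depolymerises microtubule ends at centromeres, stood at 22.5 RPKM with miR-1825, 17.8 with miR-590-3p, 9.72 with miR-199a-3p, 12.8 with miR-373-3p, 11.6 with miR-33b* and 10.4 with miR-302d-3p, against 5.49 RPKM with cel-miR-67. For Kif2c the miR-199a-3p library was the lowest of the 6, with a fold of 1.77 (1.58 to 1.98), and miR-1825 the highest, with 4.10 (3.70 to 4.54).

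**Figure D3:**
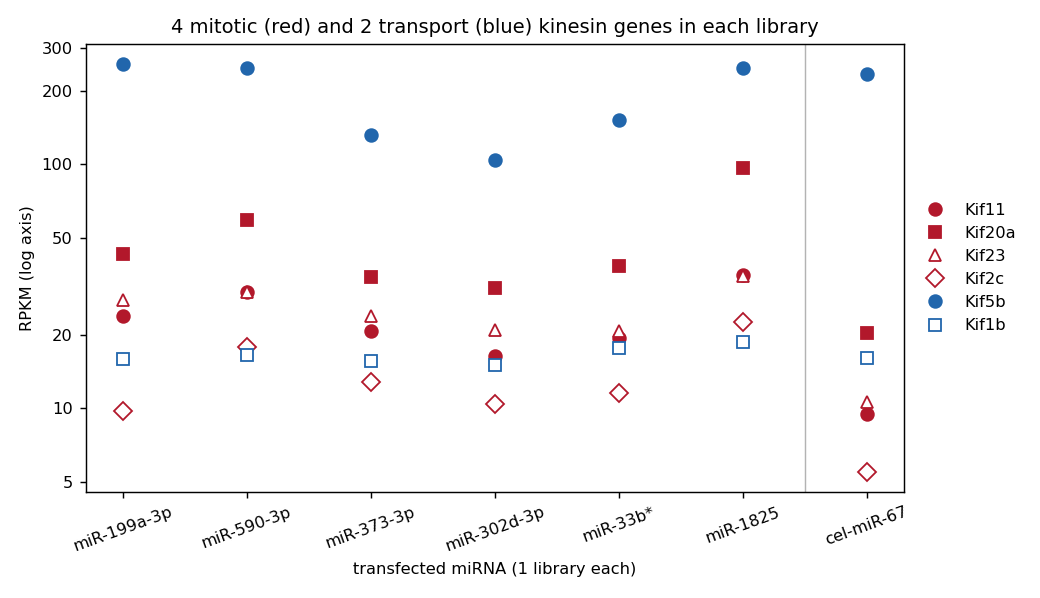
RPKM on a log axis of the 4 mitotic genes (red) and the 2 transport genes (blue) in the 6 miRNA libraries and, right of the grey line, in the cel-miR-67 library, 1 point per gene and library. The red points lie above their cel-miR-67 points in all 6 miRNA libraries, whereas Kif5b is lower with miR-33b*, miR-302d-3p and miR-373-3p and Kif1b stays between 14.998 and 18.7 RPKM.

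Chromosome-arm and midzone motors ran in the same direction. Kif20b, a kinesin of late cytokinesis, stood at 28.1 RPKM with miR-1825, 21.0 with miR-590-3p, 14.0 with miR-199a-3p, 14.9 with miR-373-3p, 13.9 with miR-33b* and 11.9 with miR-302d-3p, against 6.83 RPKM with cel-miR-67. Kif4a, the chromokinesin that works with Prc1 at the spindle midzone, stood at 16.3 RPKM with miR-1825, 11.7 with miR-590-3p, 7.85 with miR-199a-3p, 9.09 with miR-373-3p, 7.92 with miR-33b* and 8.20 with miR-302d-3p, against 4.65 RPKM with cel-miR-67. Kif22 (Kid), a chromokinesin that pushes chromosome arms toward the spindle equator, stood at 41.9 RPKM with miR-1825, 32.2 with miR-590-3p, 28.8 with miR-199a-3p, 23.4 with miR-373-3p, 22.2 with miR-33b* and 20.5 with miR-302d-3p, against 13.9 RPKM with cel-miR-67. All 3 genes were above the 1 cel-miR-67 library in every miRNA library, as were 13.9% of all genes tested. Their smallest changes were 0.72 for Kif20b, 0.65 for Kif4a and 0.53 for Kif22.

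Further mitotic motors had lower levels. Kifc1 (HSET), a minus-end motor that bundles spindle poles, stood at 13.1 RPKM with miR-1825, 9.57 with miR-590-3p, 10.5 with miR-199a-3p, 7.64 with miR-373-3p, 7.85 with miR-33b* and 6.57 with miR-302d-3p, against 4.66 RPKM with cel-miR-67. It was 1 of the 2 spindle members, with Kif15, in which miR-199a-3p stood above miR-590-3p. Kif14, which recruits citron kinase to the midbody, stood at 5.23 RPKM with miR-1825, 4.39 with miR-590-3p, 3.53 with miR-199a-3p, 2.82 with miR-373-3p, 2.68 with miR-33b* and 2.16 with miR-302d-3p, against 1.63 RPKM with cel-miR-67. Kif18a, which damps chromosome oscillation at the spindle equator, stood at 8.35 RPKM with miR-1825, 6.67 with miR-590-3p, 5.72 with miR-199a-3p, 4.87 with miR-373-3p, 4.87 with miR-33b* and 3.81 with miR-302d-3p, against 3.03 RPKM with cel-miR-67. Both were past 2-fold with miR-1825, at 1.25 for Kif14 and 1.22 for Kif18a, and Kif14 also with miR-590-3p, at 1.04. The other spindle members, Kif18b and Kif15, did not reach 2-fold in any library on the scale with the pseudocount, although Kif18b, which acts on spindle microtubules, had a fold of 2.41 (2.03 to 2.88) without it with miR-1825. Kif15, a motor that can share the work of Kif11 on the spindle, was 3.69 RPKM with miR-33b*, against 3.72 RPKM with cel-miR-67, a fold of 0.990 (0.860 to 1.14). It was the member that kept the count of spindle genes above 0 in all 6 libraries at 11 rather than 12. The interval for Kif18b with miR-33b* also reached below 1 (0.986 to 1.48).

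Among the 6 miRNA libraries the order of the spindle members was uneven in size but similar from gene to gene. The miR-1825 library was the highest for 12 of 12 genes and miR-590-3p the second for 10. The miR-302d-3p library was the lowest for 7, miR-33b* for 3 (Kif15, Kif18b and Kif23) and miR-199a-3p for 2 (Kif2c and Kif4a). These genes are not independent replicates of a condition, and the order was read from 1 library each. The libraries of miR-302d-3p and miR-373-3p, miRNAs that share a seed, differed by a median of 0.19 on the log2 scale over the 12 spindle members (largest 0.31, for Kif11), against 0.10 over all genes tested. Without replicates it cannot be said which neighbours in this order differ beyond the spread between cultures.

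The median cargo transport kinesin stood near the cel-miR-67 level, while Kif5b, Kif1c, Kif13a and Kifc3 were lower with miR-373-3p and miR-302d-3p. Kif1b, with a higher mean RPKM than Kif13a, changed by -0.04 with miR-373-3p and -0.10 with miR-302d-3p. Median changes of the 11 transport members that passed the filter were 0.05 with miR-1825, 0.06 with miR-590-3p, 0.13 with miR-199a-3p, -0.01 with miR-373-3p, -0.05 with miR-33b* and -0.12 with miR-302d-3p. With a filter of 5 RPKM, which leaves Kif5b, Kif1b, Kif1c and Kif13a, the median was -0.69 with miR-373-3p and -0.69 with miR-302d-3p. Count intervals lay below 1 for 3 of the 11 with miR-1825 (26.8% of all genes tested), 1 with miR-590-3p (23.5%), 0 with miR-199a-3p (26.5%), 4 with miR-373-3p (27.3%), 4 with miR-33b* (27.2%) and 5 with miR-302d-3p (27.6%). Of the 11, none was at least 2-fold higher in any library. The sole member at least 2-fold lower on that scale in any library was Kif5b with miR-302d-3p, 1 of 28 members against 2.11% of all genes tested. Without the pseudocount, the low-level Kif1a with miR-1825 had a fold of 0.482 (0.346 to 0.667). After the other miRNAs 0 of 28 were at least 2-fold lower, against 1.63% (miR-1825), 1.87% (miR-373-3p), 0.762% (miR-590-3p), 1.24% (miR-33b*) and 1.52% (miR-199a-3p) of all genes.

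Kif5b, the ubiquitous heavy chain of conventional kinesin, was the most abundant kinesin per length in every library. It stood at 248 RPKM with miR-1825, 248 with miR-590-3p, 256 with miR-199a-3p, 132 with miR-373-3p, 152 with miR-33b* and 104 with miR-302d-3p, against 233 RPKM with cel-miR-67. The miR-199a-3p, miR-590-3p and miR-1825 libraries lay above cel-miR-67 and the other 3 below it. Folds were 0.445 (0.435 to 0.455) with miR-302d-3p, 0.565 (0.552 to 0.578) with miR-373-3p and 0.649 (0.634 to 0.665) with miR-33b*. The log2 change of -1.16 with miR-302d-3p was -0.91 when values were scaled to the reads of listed genes, which no longer passed 2-fold.

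Kif1b, a carrier of mitochondria and of synaptic vesicle precursors in neurons, stood at 18.7 RPKM with miR-1825, 16.5 with miR-590-3p, 15.9 with miR-199a-3p, 15.6 with miR-373-3p, 17.6 with miR-33b* and 14.998 with miR-302d-3p, against 16.1 RPKM with cel-miR-67. Its changes ran between -0.10 and 0.21, and the negative ones (miR-302d-3p, miR-199a-3p and miR-373-3p) had a positive sign under scaling to listed reads. Kif1c and Kif13a, both vesicle motors, and Kifc3, a minus-end motor, are named here after their values were seen. Kif1c was 27.8 RPKM with miR-373-3p and 29.0 with miR-302d-3p, against 43.9 RPKM with cel-miR-67, with folds of 0.633 (0.605 to 0.662) and 0.662 (0.634 to 0.691). After miR-199a-3p it was 66.99 RPKM, 1.53-fold (1.47 to 1.59) the cel-miR-67 level. Kif13a was 9.27 RPKM with miR-373-3p and 8.94 with miR-302d-3p, against 16.2 RPKM with cel-miR-67, with folds of 0.572 (0.538 to 0.607) and 0.552 (0.520 to 0.585). Kifc3 was 2.10 RPKM with miR-373-3p and 1.59 with miR-302d-3p, against 2.92 RPKM with cel-miR-67. In the other 4 miRNA libraries Kif1c and Kif13a had values on both sides of the cel-miR-67 level, and Kifc3 lay above it by 0.04 to 0.18. Kif13b, which carries vesicles to the cell cortex, was the 1 transport member above cel-miR-67 in all 6 libraries, by 0.21 to 0.43. The changes of Kif3b and Kif3c, subunits of heterotrimeric and related kinesin-2 motors, and of Kif16b, an endosome motor, all lay between -0.22 and 0.12. Changes of Kif3a, a kinesin-2 subunit needed to build cilia, lay between -0.14 and 0.39, and those of Kif1a, a carrier of synaptic vesicle precursors, between -0.38 and 0.52.

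The comparison of mitotic with transport members gave a positive difference after every miRNA. The mean log2 change of Kif11, Kif20a, Kif23 and Kif2c was 1.87 with miR-1825, 1.503 with miR-590-3p, 1.08 with miR-199a-3p, 1.00 with miR-373-3p, 0.93 with miR-33b* and 0.77 with miR-302d-3p. The mean of Kif5b and Kif1b was 0.15 with miR-1825, 0.06 with miR-590-3p, 0.06 with miR-199a-3p, -0.43 with miR-373-3p, -0.25 with miR-33b* and -0.63 with miR-302d-3p. The difference between the means was therefore 1.72 with miR-1825, 1.44 with miR-590-3p, 1.03 with miR-199a-3p, 1.42 with miR-373-3p, 1.18 with miR-33b* and 1.39 with miR-302d-3p. It was similar with miR-302d-3p, miR-590-3p and miR-373-3p by unlike routes: the mitotic mean was highest of the 3 with miR-590-3p, and the transport mean was below 0 after the other 2 through Kif5b. These are means over genes of 1 library, with no error between samples. The chosen genes do not stand for their whole groups. By mean change over the 6 miRNAs, the 4 mitotic genes (1.16 to 1.23) and Kif20b were the highest of the 12 spindle members. Kif5b (-0.38) was level with Kif13a as the lowest transport member. Medians of the full lists lay closer together after every miRNA, for example 0.56 against -0.12 with miR-302d-3p.

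Summed levels show the same shift in the make-up of the family. The 12 spindle and cytokinesis genes summed to 313 RPKM with miR-1825, 232 with miR-590-3p, 184 with miR-199a-3p, 163 with miR-373-3p, 155 with miR-33b* and 139 with miR-302d-3p, against 86.1 RPKM with cel-miR-67. Their share of the summed RPKM of all 38 members was 31.9% to 46.1% in the miRNA libraries, against 20.1% in the cel-miR-67 library. Kif5b alone made up 30.9% to 44.3% of that sum after the miRNAs and 54.6% with cel-miR-67. The 15 transport genes together summed to 351 RPKM with miR-1825, 346 with miR-590-3p, 379 with miR-199a-3p, 206 with miR-373-3p, 242 with miR-33b* and 177 with miR-302d-3p, against 330 RPKM with cel-miR-67. With miR-1825, miR-590-3p and miR-199a-3p, the share of Kif5b was thus lower beside a Kif5b level and a transport sum above those of cel-miR-67, and the spindle sum was higher.

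**Figure D4:**
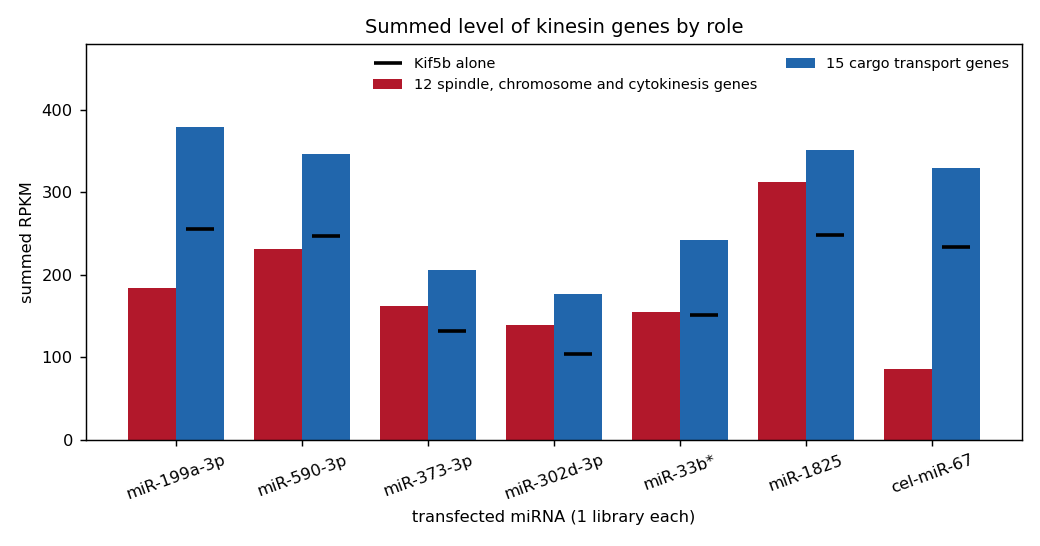
Summed RPKM of the 12 spindle, chromosome and cytokinesis genes (red bars) and the 15 cargo transport genes (blue bars) in the 6 miRNA libraries and the cel-miR-67 library, with Kif5b alone as a black line. The red bars stand at 139 to 313 RPKM after the miRNAs and at 86.1 RPKM with cel-miR-67, and Kif5b makes up most of each blue bar.

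Among the kinesins with other roles, Kif26b stood apart. Kif26b, a kinesin-like protein linked to signalling and cell adhesion that lacks motor activity, was 0.488 RPKM with miR-1825, 0.326 with miR-590-3p, 0.468 with miR-199a-3p, 2.21 with miR-373-3p, 1.00 with miR-33b* and 3.27 with miR-302d-3p, against 0.184 RPKM with cel-miR-67. Behind these values were 97, 59, 94, 503, 167 and 843 reads in the 6 miRNA libraries in that order and 31 reads in the cel-miR-67 library. It was highest in the 2 libraries whose miRNAs share a seed, with folds of 17.8 (12.4 to 26.3) with miR-302d-3p and 11.998 (8.35 to 17.8) with miR-373-3p, and it also had an interval above 1 after each of the other 4. Kif26b reached the filter of 1 RPKM only through the libraries in which it is high. Its promoter window held TTTGAA at -9 and a CCAAT box at -73.

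Kif21a and Kif21b, which limit microtubule growth, and Kif2a, a depolymerising kinesin, were above cel-miR-67 in all 6 libraries, by 0.003 to 0.69, 0.12 to 0.69 and 0.13 to 0.61. Kif21b was low, at 0.684 RPKM with cel-miR-67. Its folds without the pseudocount were 2.51 (1.99 to 3.19) with miR-302d-3p, 2.41 (1.88 to 3.11) with miR-33b* and 2.00 (1.57 to 2.57) with miR-373-3p. The lowest was 1.21 (0.914 to 1.60) with miR-590-3p. Kif21a was 5.51 RPKM with miR-373-3p and 5.49 with miR-302d-3p, against 3.03 RPKM with cel-miR-67, and 3.04 to 3.90 RPKM after the other 4. Kif7, a regulator of Hedgehog signalling in the primary cilium, was above the cel-miR-67 level in 5 of 6 libraries. The median change of the 5 members of this kind that passed the filter was 0.16 to 0.69 over the 6 libraries. Kif26b and Kif21b are among these 5 and passed through miRNA libraries in which they are higher, so this median leans upward.

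The 10 members below the filter were Kif5a, Kif5c, Kif6, Kif9, Kif12, Kif17, Kif24, Kif26a, Kif27 and Kifc2. Kif5a and Kif5c, close relatives of Kif5b with known roles in neurons, did not exceed 0.151 and 0.464 RPKM in any library. Kif9, a kinesin of motile cilia, had 0 reads in 3 libraries and at most 10 in the others, with 3 reads of a 2 kb gene corresponding to 0.0432 to 0.0668 RPKM by library. The low values of Kif26a and Kifc2 are named after they were seen. Kif26a was 0.445 RPKM with miR-1825, against 1.21 RPKM with cel-miR-67 (fold 0.367, 0.277 to 0.481), and Kifc2 was 0.808 RPKM with miR-33b*, against 0.292 RPKM with cel-miR-67 (fold 2.77, 1.69 to 4.67).

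Partners of the mitotic kinesins were also higher. All 14 listed partners passed the filter and all 14 were above cel-miR-67 in all 6 libraries, against 13.9% of all genes tested. Cenpe, counted among the 14, is itself a mitotic kinesin that the symbol rule leaves out of the family (mean change 1.07). Their median changes were 1.60 with miR-1825, 1.297 with miR-590-3p, 0.81 with miR-199a-3p, 0.77 with miR-373-3p, 0.76 with miR-33b* and 0.59 with miR-302d-3p. At least 2-fold higher were 12, 12, 3, 4, 2 and 2 of the 14 in that order, against 2%, 1.51%, 1.04%, 1.15%, 1.3% and 1.31% of all genes tested, and 7 were at least 1.5-fold higher in all 6, against 0.584%. The 2 with the highest mean change were Ect2, the exchange factor that starts furrow ingression once bound to centralspindlin, and Aurka, the kinase of spindle pole assembly. Ect2 was 66.4 RPKM with miR-1825, 38.01 with miR-590-3p, 29.4 with miR-199a-3p, 30.1 with miR-373-3p, 23.5 with miR-33b* and 20.9 with miR-302d-3p, against 12.1 RPKM with cel-miR-67. Changes of Aurka ran between 0.78 with miR-199a-3p and 2.26 with miR-1825. The 2 lowest were Cit, the citron kinase that Kif14 brings to the midbody, at 0.25 to 0.68, and Incenp, the scaffold of the passenger complex that Kif20a carries, at 0.33 to 1.00.

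Some values carry a limit from reads that genes may share or from scaling. RefSeq lists pseudogenes named for Kif11, Kif13a, Kif18b and Kif1c, and Kif4b as a pseudogene, in the GRCr8 annotation, and how reads shared with such copies were counted is not given in the sources used here, so those 4 members and Kif4a are uncertain to that extent. The library sizes implied by the RPKM were 22446204 to 34708141 reads, and listed reads were 85.5% to 109.5% of them. With cel-miR-67, miR-590-3p and miR-33b* the implied size was below the listed reads, and how these sizes were set is unstated. Scaling to listed reads moved the median change of all genes by 0.11 with miR-1825, 0.01 with miR-590-3p, 0.30 with miR-199a-3p, 0.17 with miR-373-3p, 0.10 with miR-33b* and 0.21 with miR-302d-3p. Under that scaling all 12 spindle and cytokinesis members were above 0 in all 6 libraries, and transport members above 0 numbered 9, 9, 11, 7, 7 and 7 of 11 in that order, against 7, 9, 8, 5, 5 and 2 as deposited.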

How the data were processed

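Poly(A)-selected RNA (TruSeq mRNA) from 7 transfected cultures was sequenced, 1 library per miRNA. The deposited RPKM values were made by the authors; per the submitters' processing notes, STAR 2.7, edgeR and the Rnor_6.0 build were involved, but their roles and order are unstated. Not given in the sources used here are the read counter, the annotation, the strand setting and any filter. The 7 per-library tables hold the same values as the series table (7 of 7), and the 7 columns of authors' ratios were not used. Whole reads were recovered from the RPKM for all 17141 genes (100%, within 0.002 to 0.05 reads of a whole number), with a median implied gene length of 2227 bases. These reads gave the exact 95% intervals, which treat reads as independent and cover counting error only.

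Changes were computed with a pseudocount of 1 RPKM over the 12330 genes whose mean reached 1 RPKM. Calls were a 2-fold change per miRNA or 1.5-fold in all 6. Members and lists were chosen with earlier results of these data known. Values in every library are given for the 6 genes of the mitotic and transport comparison and for each member past 2-fold in any library, and from each list of partners the 2 highest and 2 lowest by mean change are named. Alternatives were pseudocounts of 0.1 and 5 RPKM, no filter, a filter of 5 RPKM, centring on the median of all genes, the other 5 miRNA libraries as reference, leaving out each miRNA library, and, chosen after seeing the data, scaling to listed reads. The read recovery and the 2-fold limit were tested on simulated data, and the intervals were not. Promoters were matched by symbol to a RefSeq table on GRCr8 (33469 rows); of 2 rows for Kif2c the one nearest the gene's outer start was used. Python 3.11.15, numpy 2.4.6, pandas 2.3.3, scipy 1.17.1 and matplotlib 3.10.9 were used.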

Additional observations from a re-analysis of the deposited data

How the results depend on the processing

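No paired analysis was possible because each group has 1 library. With 1 library per miRNA, no setting can show the spread between cultures, and depth limits mainly the members below 1 RPKM. Of 222 values that answer a comparison, recomputed under the alternatives, 183 kept their direction and side of the limit (counts within 1.5 times), 22 moved, 9 fell short of the limit, 4 newly passed it and 4 reversed. Some of the 183 could not change. Centring on the median leaves each mitotic minus transport difference as it was. Dropping the filter leaves the spindle medians as they were, because all 12 members pass it.

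Members at least 2-fold higher numbered 2 with miR-199a-3p, 5 with miR-590-3p, 0 with miR-373-3p and 0 with miR-302d-3p at a pseudocount of 5 RPKM, against 5, 8, 5 and 1 at 1 RPKM. With a pseudocount of 0.1 RPKM they numbered 2 with miR-302d-3p and 5 with miR-33b*, and with a filter of 5 RPKM 0 with miR-302d-3p. Scaled to listed reads they numbered 9 with miR-199a-3p, 3 with miR-302d-3p and 4 with miR-33b*. The count at least 1.5-fold higher in all 6 was 1 with a pseudocount of 5 RPKM and 6 to 8 with each miRNA library left out (8 without miR-302d-3p), and the count 1.5-fold lower in all was 0 to 0. The spindle median at a pseudocount of 5 RPKM was 0.47 for miR-33b*, 0.58 for miR-199a-3p and 0.57 for miR-373-3p, and that for miR-302d-3p was 0.65 under a filter of 5 RPKM and 0.80 scaled to listed reads. The transport median was -0.69 with miR-373-3p and -0.69 with miR-302d-3p under a filter of 5 RPKM, and 0.0037 with miR-373-3p with no filter. Scaled to listed reads it was 0.14 with miR-373-3p, 0.055 with miR-302d-3p and 0.026 with miR-33b*. Kif5b with miR-302d-3p no longer passed 2-fold lower (0 members) when scaled to listed reads.

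With the other 5 miRNA libraries as reference in place of cel-miR-67, the 6 changes of a gene sum to 0 by construction, so the shared direction is removed. Members at least 2-fold higher then numbered 0 with miR-199a-3p, 0 with miR-590-3p, 0 with miR-373-3p and 1 with miR-1825, and 0 were 2-fold lower with miR-302d-3p. The mitotic minus transport difference was 0.43 with miR-1825, 0.095 with miR-590-3p, -0.41 with miR-199a-3p, 0.072 with miR-373-3p, -0.23 with miR-33b* and 0.036 with miR-302d-3p. The spindle median was 0.056 with miR-199a-3p, 0.28 with miR-590-3p, -0.18 with miR-373-3p, -0.48 with miR-302d-3p and -0.32 with miR-33b*. Kif20a with miR-199a-3p was -0.13, and with miR-373-3p Kif23 was -0.14, Kif20b -0.17, Kif2c -0.086 and Kif11 -0.21.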

Other observations

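Kinesin light chains and cargo adaptors, which couple transport motors to their loads, had median changes between -0.17 and 0.06 over the 6 miRNAs. Of 14 listed genes 12 were matched and passed the filter, and 0 of 12 were 2-fold higher or lower after any miRNA. Of all genes tested, 1.04% to 2% were 2-fold higher and 0.762% to 2.11% lower, so 0 of 12 does not set this list apart. The 2 highest by mean change were Kifap3, the adaptor of the kinesin-2 motor, at 0.03 to 0.24, and Mapk8ip1, a scaffold that binds kinesin light chains, at -0.33 to 0.20. The 2 lowest were Trak1, which links Kif5b to mitochondria, at -0.67 to -0.08, and Plekhm2, which links kinesin to lysosomes, at -0.54 to -0.14. Trak1 was 11.6 RPKM after miR-373-3p and 12.9 after miR-302d-3p, against 19.1 RPKM after cel-miR-67.

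Cytoplasmic dynein and dynactin, the main minus-end transport machinery, had median changes between -0.11 and 0.03, over 21 tested genes of 22 listed. Past 2-fold were 1 of 21 upward with miR-1825 (Nde1), against 2% of all genes tested, and 1 of 21 downward with miR-590-3p (Dynlt3), against 0.762%. With the other 4 miRNAs 0 passed in either direction, against 1.04% to 1.31% of all genes upward and 1.24% to 2.11% downward. Counts of 0 or 1 among 21 genes do not set this list apart from those shares. Nde1, a dynein regulator with a role in mitosis, had the highest mean change and was 28.2 RPKM after miR-1825 and 23.0 after miR-590-3p, against 11.9 RPKM after cel-miR-67. Dynlt1, a dynein light chain, was the next, at 0.11 to 0.57. Bicd2, a dynein adaptor, had the lowest mean change, with 9.61 RPKM after miR-33b* against 18.5 RPKM after cel-miR-67, and Dync1li2, a light intermediate chain, was the next, at -0.54 to 0.11. Dynlt3, a further light chain, named after its value was seen, was 3.86 RPKM after miR-590-3p, against 11.1 RPKM after cel-miR-67.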
